A study of Mus musculus with 9 samples.

Results

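Livers of ob/ob mice dosed with rice bean (*Vigna umbellata*) extract, called VE in the labels, were compared with livers of ob/ob mice dosed with vehicle. Membership came from the sample titles: 3 arrays from animals that received VE at 100 mg/kg and 3 from animals that received vehicle, 6 of the 9 arrays in the series. All 6 came from male C57BL/6JHamSlc-ob/ob mice, bought at 6 weeks of age, kept on standard chow and dosed by oral gavage for 42 days. The third group of 3 arrays, wild-type C57BL/6JHamSlc-+/+ mice given vehicle, entered the fit to estimate the spread and is quoted only beside genes described here. RNA was taken from whole liver and hybridised to Clariom S mouse arrays, which report 1 signal for each transcript cluster, a group of probes that stands for a gene. The labels give neither the time of day of tissue collection nor whether food was withdrawn, and they do not say in words that each array was a separate mouse. The p-values therefore measure the spread between these arrays.

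Mice of the ob/ob genotype have no working leptin, the hormone by which fat tissue restrains feeding, and become obese and insulin resistant with fat-laden livers. Hepatocytes in such a liver make fatty acids at a high rate, and resident macrophages, the Kupffer cells, can take on an inflammatory state. Rice bean is a legume whose seeds are rich in polyphenols. Whole liver is a mixture, so for every gene below fewer cells of a type and less RNA per cell cannot be told apart.

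Vehicle replicate 3 stood apart from the other ob/ob arrays. Over all clusters it correlated at 0.948 and 0.952 with vehicle 1 and vehicle 2, which correlated at 0.990 with each other, and at 0.957 to 0.960 with the extract arrays. Its signals had the narrowest spread of the 6 arrays (interquartile range 3.26 log2), vehicle 1 and 2 the widest (3.83 and 3.85), and the extract arrays lay between (3.48 to 3.68). Olfactory receptor genes, which liver does not use and which serve as a reference for background, had a median of 4.33 on vehicle 3 and of 3.63 to 3.75 on the other 5. Results are therefore given with all arrays and without vehicle 3. The tissue matched its label: the 15 hepatocyte identity genes averaged 15.5 to 16.6 log2 on each ob/ob array, whereas 10 of 13 pancreas and mesothelium markers stayed under the olfactory reference on all 6, a level that 2.5% of the olfactory receptors exceed.

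With all arrays, no transcript cluster passed the test of extract against vehicle after correction for multiple tests. Of 22206 clusters, 0 (0%) had an adjusted p under 0.05 in limma, and the smallest adjusted p was 0.593. The criterion named in the design text, a raw p under 0.05 and a fold above 1.1 on the linear scale, was met by 1433 clusters (6.45%), 790 higher (3.56%) and 643 lower (2.9%) after extract. The 3 extract arrays lay wholly above or wholly below the 3 vehicle arrays in 3009 clusters (13.6%), above in 1659 (7.47%) and below in 1350 (6.08%). Differences were small for most genes, with a median of -0.01 log2 and 95% of clusters between -0.91 and 0.77, against a median standard error of 0.32. Below, "higher" and "lower" give the direction of a mean difference with this criterion as the yardstick, and "fell" is kept for calls after correction.

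Leaving out vehicle 3 gave 51 clusters (0.23%) with an adjusted p under 0.05, 51 lower and 0 higher, and the smallest adjusted p was 0.0266. The criterion was then met by 2452 clusters (11%), 911 higher (4.1%) and 1541 lower (6.94%), so that the share of higher genes among them went from 55.1% to 37.2%. In both fits and in the same direction it was met by 925 clusters (4.17%), 470 higher (2.12%) and 455 lower (2.05%). The count of calls moved with the arrays and settings used: leaving out vehicle 1, vehicle 2 or any 1 extract array as well left 0 calls, wild-type 2 left 20, wild-type 3 gave 360, the ob/ob groups alone 308 and array weights 715. Quantile normalization, which gives all arrays the same distribution of signals, also left 0. The direction of the calls moved too, since 48 of the 360, 38 of the 308 and 160 of the 715 were higher. The part of the wider signal spread of vehicle 1 and 2 in the 51 calls was not tested further.

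**Figure D1:**
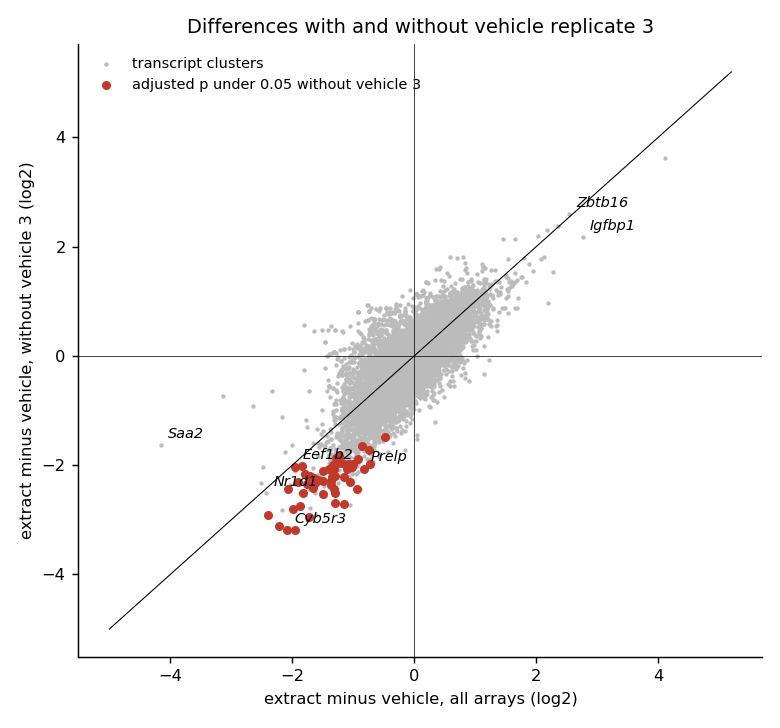
Each point is a transcript cluster, placed by its extract minus vehicle difference in log2 units with all arrays (horizontal) and without vehicle replicate 3 (vertical); the diagonal marks equal values and red points are the 51 clusters with an adjusted p under 0.05 without vehicle 3. All 51 lie below 0 on both axes, Prelp with -0.83 against -2.06 and Saa2, which is not among them, with -4.15 against -1.64.

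The 12 genes per direction described first were chosen by size among those whose groups did not overlap, so their separation is not a finding. Those that were higher with or without vehicle 3 were led by Zbtb16, a zinc finger transcription repressor. Its log2 signal was 8.50, 7.16 and 7.99 on the vehicle arrays and 10.32, 11.36 and 9.58 on the extract arrays, a difference of 2.54 (SE 0.63) with all arrays and 2.59 (SE 0.71) without vehicle 3. All 3 extract arrays were above all 3 vehicle arrays. Fkbp5, a co-chaperone of the glucocorticoid receptor, read 11.53, 10.90 and 11.28 with vehicle and 12.61, 14.44 and 13.74 with extract. Tsc22d3, which encodes the leucine zipper protein GILZ, read 9.52, 9.30 and 9.40 against 10.79, 10.58 and 12.25. In both genes the vehicle arrays lay close together, vehicle 3 among them, and the extract arrays were all higher but far apart. The differences were 2.36 (SE 0.71) for Fkbp5 and 1.80 (SE 0.56) for Tsc22d3. Wild-type arrays read 13.13, 13.41 and 10.44 for Fkbp5, the last below every vehicle array. For Tsc22d3 they read 10.57, 12.83 and 12.12, all above the vehicle arrays.

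Other genes with large positive differences act in lipid storage, cytokine signalling and RNA handling. G0s2, an inhibitor of the lipase that breaks down stored triglyceride, read 8.52, 9.07 and 9.22 with vehicle and 10.55, 12.49 and 10.28 with extract, a difference of 2.17 (SE 0.75). Il6ra, the ligand-binding subunit of the interleukin-6 receptor, read 8.22, 8.10 and 7.22 against 8.97, 10.66 and 10.29, a difference of 2.13 (SE 0.49). In neither gene did the groups overlap, though extract 2 was the highest array of both. Lonrf3, a RING finger protein, had one of the tightest patterns among these genes, at 5.23, 5.2 and 4.24 against 6.53, 6.43 and 7.01. Its vehicle values were all under the olfactory reference, which was 5.33 to 6.44 on the ob/ob arrays and highest on vehicle 3, so its level with vehicle was not above background. Rsrp1 (difference 1.94), Safb2 (1.65, a nuclear scaffold protein), Ptms (1.83), Glt1d1 (1.69) and the kinase gene Pim3 (1.69) were also higher on every extract array than on every vehicle array. For Rsrp1, Ptms, Glt1d1, Safb2 and Pim3 vehicle 3 was the lowest of the 6 arrays, and without it the differences were 1.55, 1.35, 1.39, 1.35 and 1.07. Fam214a went the other way: vehicle 3, at 11.58, was the vehicle array nearest to the extract arrays (11.84, 12.28 and 12.65), and the difference was 1.65 with it and 2.14 (SE 0.41) without it.

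The genes that were lower included the clock repressor Nr1d1, the macrophage factor Spi1, 2 tubulins and the elongation factor subunit Eef1b2. Eef1b2, part of the complex that recharges elongation factor 1A in translation, had the smallest p of all clusters, at 15.62, 15.37 and 15.27 with vehicle and 13.35, 13.51 and 13.54 with extract. Its difference was -1.95 (SE 0.29) with all arrays. Vehicle 3 lay beside the other vehicle arrays, and the extract arrays were all below them by a margin wider than the spread in either group. Without vehicle 3 the difference was -2.03 and the adjusted p 0.0423. Wild-type arrays read 14.56, 14.05 and 13.48 for it.

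Spi1 encodes PU.1, the transcription factor that defines macrophages and other myeloid cells. Its signal was 10.19, 9.85 and 8.49 with vehicle and 7.55, 7.16 and 6.61 with extract, a difference of -2.40 (SE 0.46) with all arrays. The groups did not overlap, and vehicle 3 was the vehicle array nearest to the extract arrays. Without it the difference was -2.91 (SE 0.38), adjusted p 0.0266. Tnfrsf1a, the main receptor of tumour necrosis factor, read 11.42, 10.59 and 8.31 against 7.88, 8.06 and 7.73, so that vehicle 3 lay just above the extract arrays and far below its own group. Its difference went from -2.22 to -3.12 when vehicle 3 was left out. Litaf, an endosomal protein named for its induction by lipopolysaccharide, read 10.61, 9.68 and 8.96 against 8.19, 7.83 and 7.49, again with no overlap, and fell by 2.31 without vehicle 3.

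Further lower genes were less even among the extract arrays. Ly6d, which was at 11.99, 12.25 and 12.68 with vehicle, read 11.84, 9.60 and 7.94 with extract, a difference of -2.51 (SE 0.75), and extract 1 was within reach of the vehicle arrays. Wild-type livers read 4.09, 4.10 and 3.38. Arrdc3, an arrestin-domain protein, was at 12.21, 11.85 and 13.11 against 10.77, 11.60 and 8.80. Extract 3 was far below extract 2 in this gene, and the groups nearly met. Mmd2 differed by -1.96, Dhrs1, a dehydrogenase of the short-chain family, by -1.88, and neither had overlapping groups. Across the 24 genes chosen by size in both directions the adjusted p with all arrays ran from 0.593 to 0.74. The numbers of clusters from which they were taken were 216 higher and 228 lower.

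**Figure D2:**
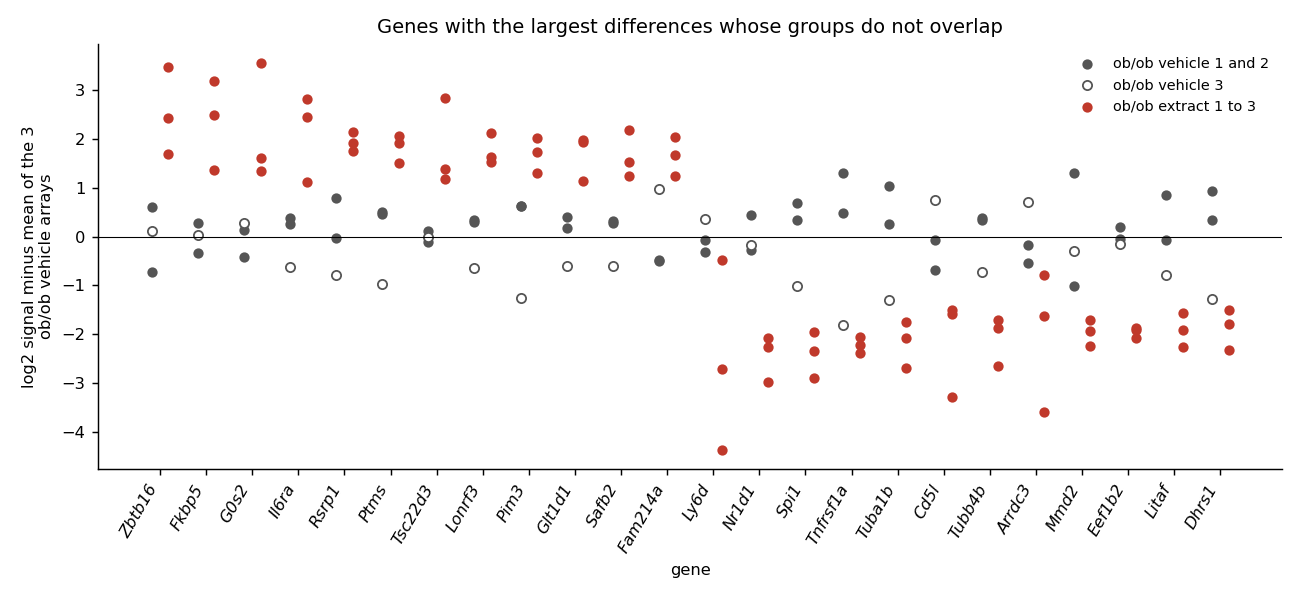
For each of the 12 genes with the largest positive and the 12 with the largest negative differences, the log2 signal of every ob/ob array is shown relative to the mean of the 3 vehicle arrays; the open circle is vehicle 3. The genes were chosen for groups that do not overlap, so the gap is no finding; vehicle 3 is near the extract arrays for Tnfrsf1a and Fam214a and amid the vehicle arrays for Fkbp5 and Eef1b2.

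The 51 clusters that fell without vehicle 3 held 48 with a symbol. The call with the smallest p was Cyb5r3, a cytochrome b5 reductase of fatty acid desaturation, at 18.15 and 17.46 on vehicle 1 and 2 and 14.70, 14.53 and 14.61 with extract, a difference of -3.19 (SE 0.34). Vehicle 3 read 14.50, below all extract arrays. The same held for Ddah1, which degrades methylarginine inhibitors of nitric oxide synthase: 14.56 and 14.56 on vehicle 1 and 2, 12.32, 12.23 and 12.50 with extract, and 11.99 on vehicle 3. Ggcx, the vitamin K-dependent carboxylase of clotting factors, was at 11.88 and 11.79, then 9.86, 9.84 and 9.88, and at 9.11 on vehicle 3.

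That placement was general among them. Vehicle 3 was below both vehicle 1 and vehicle 2 in all 51, as it was in 36.9% of all clusters, and nearer to the extract mean than to the mean of vehicle 1 and 2 in 48. It lay above the extract range in 12, inside it in 12 and below it in 27. The 3 wild-type arrays, which the fit used for the spread alone, were all below vehicle 1 and vehicle 2 in all 51, as in 19.6% of all clusters. The 51 were chosen for high values of vehicle 1 and 2 against the extract arrays, which favours both counts, so neither is read as a result. With vehicle 3 back in, 27 of the 51 met the design text's criterion, where 2.9% of all clusters were lower by it. This is a description only, since both fits share the other arrays.

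In 12 of the 51 the groups did not overlap even with vehicle 3 included, where 6.08% of all clusters were lower without overlap. The way the 51 were chosen favours this count, so it is not read as a result. Besides Eef1b2, Spi1, Tnfrsf1a and Litaf, the 12 held Tubb4b, the sialyltransferase gene St6gal1, Lgals9 (galectin-9), Mtfr1 (a mitochondrial protein) and Zfand2a. The rest were Mlec (an endoplasmic reticulum lectin), Tmem143 and 1 cluster with no symbol. All were picked by this count after their values were seen. Lgals9, at 14.36, 13.98 and 12.21 against 12.20, 12.15 and 12.19, shows how narrow that can be: vehicle 3 was level with the extract arrays, and the difference was -1.34 with it and -1.99 without it. St6gal1, which adds terminal sialic acid to N-glycans, is the opposite case, at 9.35, 8.77 and 8.52 against 7.42, 6.89 and 6.81, with differences of -1.84 (SE 0.29) and -2.02 (SE 0.31). Other called genes were Serinc2, Trp53i11, Prelp (a matrix proteoglycan) and Ly6e, a surface protein induced by interferon that fell by 2.94. For Prelp, vehicle 3 read 6.15, lower than any extract array (7.54, 8.05 and 7.74), and the difference was -0.83 (SE 0.80) with all arrays and -2.06 without vehicle 3.

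**Figure D3:**
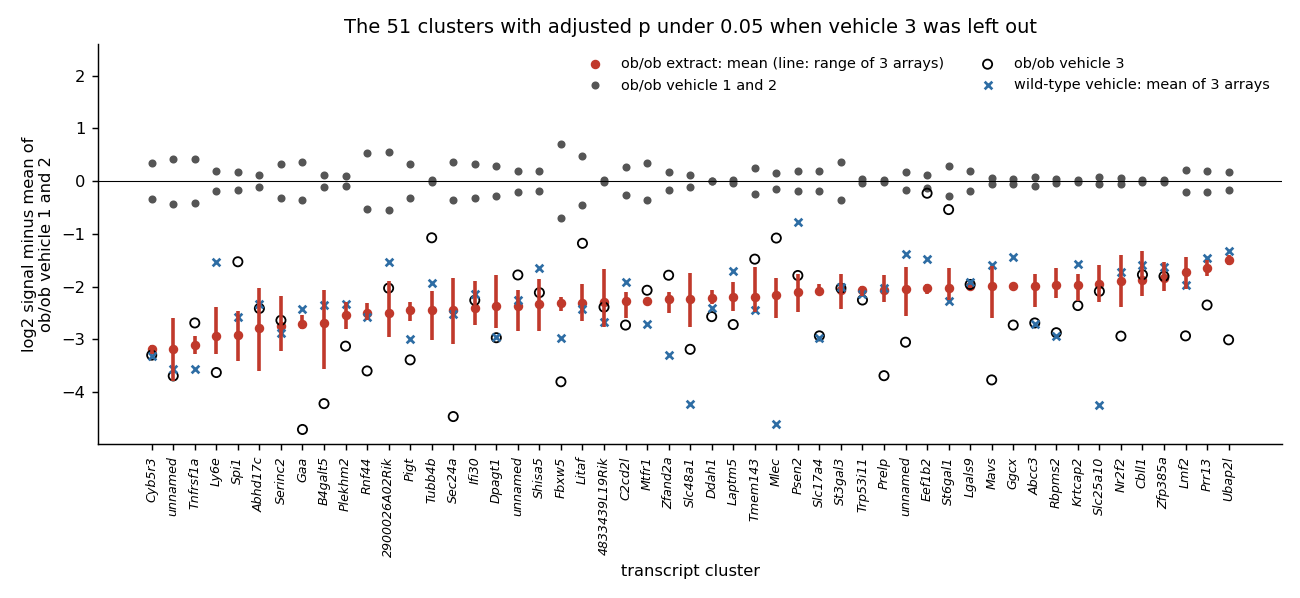
The 51 clusters with an adjusted p under 0.05 without vehicle 3, ordered by the extract mean, on a scale of log2 signal minus the mean of vehicle 1 and 2; red lines span the 3 extract arrays, open circles are vehicle 3 and crosses are wild-type means. Vehicle 3 lies below vehicle 1 and 2 in all 51 and below the extract range in 27.

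Circadian clock genes gave members with separated groups in either direction and no common one. The liver clock is a loop in which CLOCK and BMAL1 drive Per and Cry repressors and the nuclear receptor REV-ERB alpha, encoded by Nr1d1, while D-box factors such as NFIL3 form a further arm. Of 19 clock genes measured, 1 met the criterion higher and 1 lower, beside 3.54% and 2.95% of the 19505 annotated genes. The groups did not overlap in 3 higher and 3 lower, beside 7.49% and 6.11%. Of these 3 lower genes the naming rule took Nr1d1 alone. Nr1d1 read 9.16, 8.44 and 8.55 with vehicle and 6.46, 6.65 and 5.74 with extract, a difference of -2.43 (SE 0.40), and -2.52 without vehicle 3 (adjusted p 0.0551). Every extract array was far below every vehicle array, and also below the wild-type arrays (9.30, 9.15 and 10.51). Cry1 was at 6.32, 6.56 and 6.82 against 7.46, 7.54 and 8.01, a difference of 1.10 (SE 0.25). Its groups were apart as well, with wild-type arrays inside the gap or just below it (7.02, 6.84 and 6.68).

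Nfil3 and Per3 had higher extract arrays by smaller margins. Nfil3, at 5.76, 6.01 and 6.56 against 6.71, 7.37 and 6.73, differed by 0.83 (SE 0.39). Per3, at 8.13, 7.98 and 6.31 against 8.23, 9.04 and 8.45, differed by 1.10 (SE 0.53) with vehicle 3 and by 0.52 without it. Per1 overlapped between groups. The median of the 19 genes was 0.21 with all arrays and -0.08 without vehicle 3, beside medians of -0.01 and 0.02 over all annotated genes.

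The promoters of the 4 clock genes with the smallest p are shown because published clock motifs are short enough to be read in them. RefSeq (GRCm38.p6) has 17 of the 20 listed clock genes in its promoter table, which was matched by symbol. Printed are the 250 bases before the annotated start on the gene's own strand, all 4 genes lying on the minus strand: Nr1d1 at chr11:98775378-98775627, Cry1 at chr10:85185055-85185304, Nfil3 at chr13:52981040-52981289 and Per3 at chr4:151044666-151044915. Capitals mark the E-box CACGTG, the D-box TTATGTAA, and the ROR half-site AGGTCA, each searched on both strands; no 2 matches overlap in these 4 windows.
Nr1d1: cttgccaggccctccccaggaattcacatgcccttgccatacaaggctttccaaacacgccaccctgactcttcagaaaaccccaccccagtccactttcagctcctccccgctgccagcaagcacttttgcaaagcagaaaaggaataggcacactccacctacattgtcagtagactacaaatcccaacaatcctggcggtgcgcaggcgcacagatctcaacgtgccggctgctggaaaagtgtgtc
Cry1: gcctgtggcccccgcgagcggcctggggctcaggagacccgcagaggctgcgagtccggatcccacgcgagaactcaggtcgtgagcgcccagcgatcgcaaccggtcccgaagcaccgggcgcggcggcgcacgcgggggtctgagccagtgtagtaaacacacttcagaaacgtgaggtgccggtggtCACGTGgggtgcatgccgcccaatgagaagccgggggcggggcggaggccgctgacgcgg
Nfil3: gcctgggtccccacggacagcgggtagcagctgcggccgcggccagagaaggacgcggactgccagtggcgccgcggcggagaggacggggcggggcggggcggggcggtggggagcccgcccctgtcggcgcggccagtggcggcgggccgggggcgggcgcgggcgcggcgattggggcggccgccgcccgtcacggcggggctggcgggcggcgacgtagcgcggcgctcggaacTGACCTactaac
Per3: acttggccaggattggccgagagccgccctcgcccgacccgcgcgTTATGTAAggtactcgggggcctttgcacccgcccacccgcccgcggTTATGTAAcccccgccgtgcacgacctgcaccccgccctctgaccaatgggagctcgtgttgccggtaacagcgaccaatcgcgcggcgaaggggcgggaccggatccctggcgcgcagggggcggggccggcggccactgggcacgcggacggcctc

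Nr1d1 held none of these letters in this window, Cry1 held an E-box that begins 60 bases before the start, Nfil3 held a half-site on the opposite strand 12 bases before it, and Per3 held 2 D-boxes that begin 205 and 158 bases before it. Over 32851 promoter windows of the same length, 6.02% held an E-box, 0.819% a D-box and 14.0% a half-site. These matches describe the sequence and were not linked to the array values.

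Some genes of glycogen storage were higher. Gys2, the liver glycogen synthase, read 11.32, 11.67 and 11.87 with vehicle and 12.95, 12.46 and 12.51 with extract, a difference of 1.02 (SE 0.25). Ppp1r3b, the subunit that brings protein phosphatase 1 to glycogen and activates the synthase, read 11.24, 11.89 and 11.39 against 12.93, 12.88 and 13.22, a difference of 1.5 (SE 0.38). Both pairs of groups were clearly apart, with vehicle 3 among its own group. Of the 17 glycogen genes, 3 met the criterion higher and 0 lower with all arrays, beside 3.54% and 2.95% of annotated genes. The third, Ppp1r3g, was under the olfactory reference on all 6 arrays. Without vehicle 3 the list had 2 higher and 2 lower, beside 3.91% and 7.24%. The list median was 0.08 with all arrays and 0.03 without vehicle 3, with other members such as Ppp1r3c pointing down (difference -1.31).

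Among 19 genes of gluconeogenesis and glucose handling, 2 met the criterion higher and 0 lower, and 1 and 2 without vehicle 3; the shares of annotated genes were 3.54% and 2.95%, then 3.91% and 7.24%. Foxo1, a transcription factor that insulin inactivates, read 7.72, 7.95 and 7.52 against 8.37, 9.02 and 9.07, a difference of 1.09 (SE 0.31). Pck1, phosphoenolpyruvate carboxykinase, read 17.43, 17.32 and 16.80 against 17.49, 18.13 and 18.09, a difference of 0.72 (SE 0.31). The groups did not overlap in either, but extract 1 was next to the vehicle arrays for Pck1. The list median was 0.40 with all arrays and -0.02 without vehicle 3. In the insulin and leptin signalling list of 26 genes, 2 were higher and 2 lower by the criterion, and 1 and 5 without vehicle 3. Igfbp1, a secreted protein that insulin represses, was higher (6.52, 6.59 and 4.81 against 8.13, 8.94 and 9.13; difference 2.76, SE 1.16), and the wild-type arrays ran from 6.33 to 12.16. Irs2 and Akt2, carriers of the insulin signal, were lower, with differences of -0.84 (SE 0.32) and -1.18 (SE 0.41). Without vehicle 3, Pck1, Igfbp1 and Irs2 no longer met the criterion, with differences of 0.53 (SE 0.32), 2.18 (SE 1.23) and -0.79 (SE 0.36). Vehicle 3 read under the olfactory reference for Igfbp1.

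De novo lipogenesis, the making of fatty acids from citrate, had the lowest median of the 47 lists with all arrays and without vehicle 3, though acute phase genes were close with all arrays. Over the alternatives for which list medians were taken, its median ran from -0.89 to -0.22. At -0.22 it was no longer the lowest, since the macrophage and tubulin medians stayed below that in each. Its 18 genes had a median of -0.65 with all arrays and -0.89 without vehicle 3, 14 of them below 0 in the first fit and 17 in the second. By the criterion 1 was lower with all arrays and 7 without vehicle 3, beside 2.95% and 7.24% of annotated genes. Acaca, acetyl-CoA carboxylase, read 12.33, 12.04 and 11.55 against 11.37, 10.69 and 10.08, a difference of -1.26 (SE 0.46), and its groups did not overlap. Elovl6, which lengthens the products of fatty acid synthase, read 17.01, 17.05 and 14.39 against 14.54, 13.87 and 15.17, and Fasn itself 15.45, 15.60 and 13.24 against 14.00, 13.52 and 11.80. In both, vehicle 3 was within the extract range and the other vehicle arrays were above it. The Fasn difference was -1.66 (SE 0.96) with all arrays and -2.42 (SE 0.94) without vehicle 3. The wild-type arrays read 13.42, 12.19 and 9.56 for Fasn, 2 of them inside the extract range and 1 below it.

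Cholesterol synthesis shared the direction but had 0 of 19 genes at the criterion with all arrays and 3 lower without vehicle 3. The shares of annotated genes lower were 2.95% and 7.24%. The list medians were -0.30 and -0.67. Insig1, a sterol sensor, differed by -0.97 (SE 0.47), and its groups overlapped. The triglyceride synthesis and lipid droplet list changed sign between fits, from 0.09 to -0.44.

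Kupffer cell and macrophage markers were lower as a list, with 1 exception at the criterion. Of 23 genes, 20 had negative differences. With all arrays 4 met the criterion lower and 1 higher, beside 2.95% and 3.54% of annotated genes. Without vehicle 3 the counts were 8 and 1, beside 7.24% and 3.91%. With all arrays 5 lay below vehicle without overlap (6.11% of annotated genes did). The median was -0.56 with all arrays and -0.54 without vehicle 3. The mean over the 23 genes was 7.14 to 7.29 on the vehicle arrays and 6.36 to 6.91 on the extract arrays, so all 3 extract arrays were below all 3 vehicle arrays. Itgam and Spic, named here after their values were seen, were the 2 members under the olfactory reference on all 6 arrays. The part of cell number in this was not tested.

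Cd5l, a protein secreted by Kupffer cells, read 9.63, 9.0 and 10.44 with vehicle and 8.19, 8.10 and 6.40 with extract, a difference of -2.13 (SE 0.62). Adgre1, which encodes the most used macrophage surface antigen of mice, read 6.67, 6.44 and 7.49 against 5.99, 5.83 and 5.64, a difference of -1.05 (SE 0.35). In both genes the groups were apart and vehicle 3 was the highest array. C1qb and C1qc, chains of complement C1q made by macrophages, differed by -1.07 (SE 0.37) and -0.74 (SE 0.31), and the groups overlapped only for C1qc. The exception was Cd163, the haemoglobin scavenger receptor, at 5.71, 6.49 and 5.22 against 6.84, 7.27 and 6.96, a difference of 1.22 (SE 0.34). All its extract arrays were above the vehicle arrays and near the wild-type arrays (7.34, 7.66 and 7.0).

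Interferon-stimulated genes and chemokines had smaller negative medians. Interferon-stimulated genes had 0 of 34 higher and 3 lower at the criterion with all arrays, beside 3.54% and 2.95% of annotated genes. The counts were also 0 and 3 without vehicle 3, beside 3.91% and 7.24%. The list median was -0.23 with all arrays and -0.14 without vehicle 3. List means were 5.9 to 6.23 on the vehicle arrays and 5.6 to 5.8 on the extract arrays. Xaf1, Ifi27 and Irf7, the master regulator of the interferon response, were the 3 with all arrays. Their differences were -1.06, -1.31 and -0.88, and the groups overlapped for Ifi27 and Irf7. Of the 34 genes, 12 stayed under the olfactory reference on all 6 arrays. Chemokines and inflammatory genes had 0 of 34 higher and 4 lower with all arrays, beside 3.54% and 2.95% of annotated genes (Cxcl10 -0.97, Ccl9 -1.18, Ccl2 -0.79 and Cxcl16 -0.64), and the median was -0.31 with all arrays and -0.04 without vehicle 3. Cxcl10, an interferon-induced chemokine, was under the olfactory reference on all 6 arrays, so its difference is between signals not above background. Without vehicle 3 the chemokine list had 1 gene higher and 2 lower, beside 3.91% and 7.24% of annotated genes. In both fits 1 was lower, beside 2.09%.

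Lymphocyte and neutrophil markers gave little signal to compare. Of 21 T and NK cell markers 17 were under the olfactory reference on all 6 arrays, as were 11 of 17 monocyte and neutrophil markers and 7 of 12 B cell and plasma cell markers. The T and NK cell median was 0.12 with all arrays and 0.16 without vehicle 3. With all arrays 2 genes, Cd2 (0.73, SE 0.24) and Cd3g (0.73, SE 0.31), met the criterion higher and 0 lower, beside 3.54% and 2.95% of annotated genes. Cd3g was among those under the reference. Cd2 was above the reference on extract 3 alone, at 5.58 against 5.33, so its level with vehicle was not above background. The monocyte and neutrophil median was -0.20 with all arrays and 0.02 without vehicle 3.

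In the acute phase list vehicle 3 was high. The list had 0 genes higher and 4 lower of 26 at the criterion, beside 3.54% and 2.95% of annotated genes, and its median was -0.64 with all arrays and -0.16 without vehicle 3. In 20 of the 26 genes vehicle 3 was the highest of the 6 arrays. Saa2, a serum amyloid A that hepatocytes secrete in inflammation, read 10.61 and 11.81 on vehicle 1 and 2, 18.75 on vehicle 3 and 11.41, 9.46 and 7.84 with extract. The difference of -4.15 (SE 1.73) with all arrays became -1.64 (SE 0.85) without that array, and the groups overlapped. Near-identical Saa genes may share probe signal.

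Lbp and Saa4 were lower whether or not vehicle 3 was counted. Lbp, which binds bacterial lipopolysaccharide, read 11.53, 11.40 and 11.03 against 9.53, 10.76 and 10.27, a difference of -1.13 (SE 0.32) and of -1.28 without vehicle 3. Saa4, the constitutive serum amyloid A, read 16.72, 17.05 and 16.15 against 14.09, 15.20 and 15.87, a difference of -1.59 (SE 0.52). Vehicle 3 was the lowest vehicle array in both, and the groups did not overlap. The complement list, at a median of -0.28, had 4 of 23 genes lower and 0 higher, against the same shares. C1qb and C1qc, counted with the macrophage markers too, were among the 4, as was Cfp, properdin, with a difference of -1.08 (SE 0.32).

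NRF2 target and antioxidant genes were lower as a list, with Hmox1 at its head. Of 28 genes, 21 had negative differences, 3 met the criterion lower and 0 higher, and the medians were -0.40 and -0.57. Without vehicle 3, 10 met it lower; the share of annotated genes lower was 2.95% and then 7.24%. Hmox1, the heme oxygenase that macrophages and hepatocytes induce under oxidative load, read 9.41, 9.35 and 9.50 with vehicle and 8.33, 8.05 and 7.75 with extract, a difference of -1.38 (SE 0.23). Vehicle 3 agreed closely with its group, and every extract array was well below. The wild-type arrays, at 8.35, 8.11 and 8.25, were beside the extract arrays. Gpx1, glutathione peroxidase, and Gclc, the catalytic subunit of glutathione synthesis, differed by -0.76 (SE 0.31) and -1.26 (SE 0.51). Nqo1, an NRF2 target as well, pointed up at 9.81, 10.04 and 9.61 against 11.51, 10.33 and 9.91, with overlapping groups.

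Tubulin genes were lower in part. Of 26 tubulin and cytoskeleton genes 7 were lower at the criterion, 6 of them tubulins, and 0 higher, beside 2.95% and 3.54% of annotated genes (6 lower in both fits, where 2.09% of annotated genes were), and the medians were -0.47 and -0.68. Of the 17 tubulin genes, 14 had negative differences. Tubb4b, a beta tubulin, read 9.03, 8.98 and 7.93 against 6.93, 6.00 and 6.78, a difference of -2.08 (SE 0.37), and it was among the 51 calls. Tuba1b read 10.82, 10.05 and 8.49 against 7.72, 7.10 and 8.04 (difference -2.17, SE 0.58), and Tuba1c 16.30, 15.66 and 14.63 against 14.22, 12.76 and 14.04 (difference -1.86, SE 0.58). Vehicle 3 was the lowest vehicle array in all 3 genes and still above the extract arrays. Tuba1a and Tubb5 differed by -1.03 (SE 0.35) and -1.23 (SE 0.37). Alpha tubulin genes are nearly identical in their coding sequence, so their probes may share signal and these members are not independent.

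**Figure D4:**
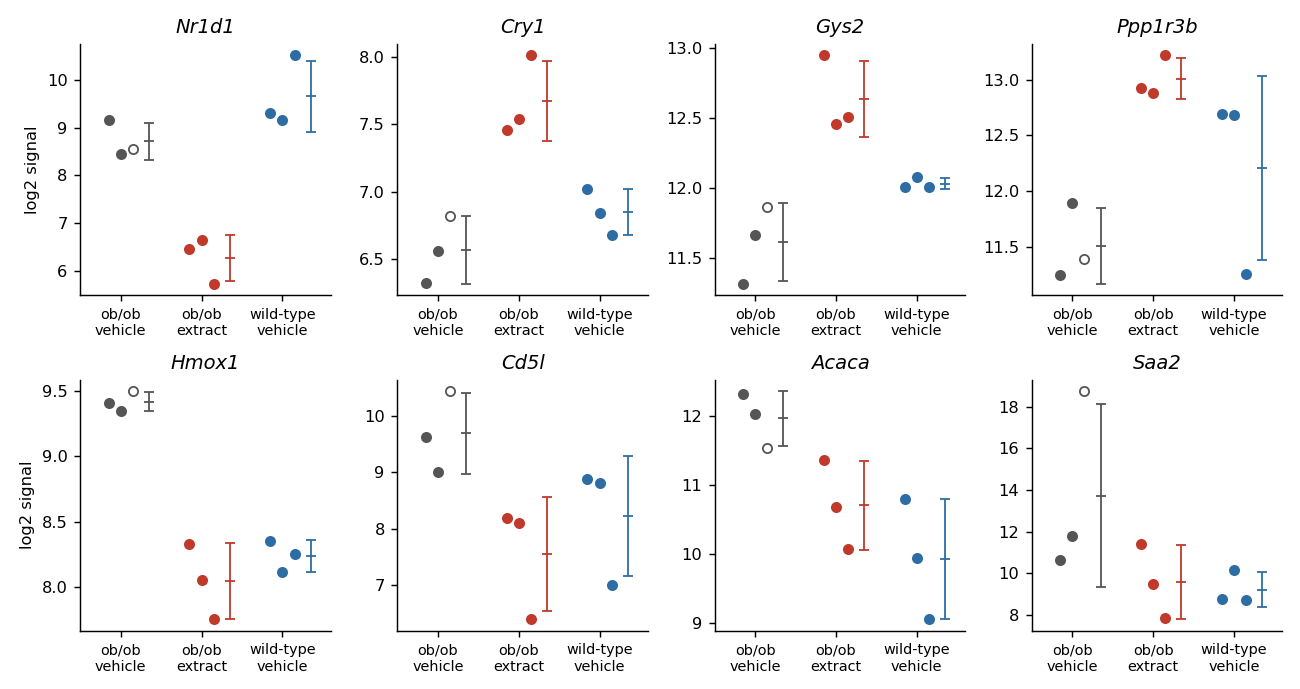
Log2 signal of 8 genes on every array, with the mean and SD of each group to the right of its points; the open circle is ob/ob vehicle 3. Extract arrays lie apart from the ob/ob vehicle arrays in all but Saa2, where vehicle 3 alone is high at 18.75.

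Glycosyltransferases, of which 3 of 33 were among the 51 calls (St6gal1, St3gal3 and, named after its value was seen, B4galt5; 0.246% of annotated genes were), had no common direction, with a median of 0.05. St3gal4, which also transfers sialic acid, pointed up at 8.52, 8.62 and 8.16 against 9.46, 9.27 and 9.45 (difference 0.96, SE 0.44). Sinusoidal endothelial markers had a median of -0.22 with all arrays. The nuclease gene Dnase1l3 (-0.76, SE 0.33) was the 1 of 22 at the criterion, beside 2.95% of annotated genes lower. In the fit without vehicle 3 the median was -0.47, 21 of the 22 differences were negative and 6 genes were lower at the criterion, beside 7.24%. Nr1i3, the xenobiotic receptor CAR, was higher at 12.78, 13.27 and 11.16 against 13.86, 14.09 and 13.73, and its difference went from 1.49 to 0.87 without vehicle 3.

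List medians depended on vehicle 3 for many pathways. Fatty acid oxidation moved from 0.05 to -0.23, ribosomal proteins from -0.14 to 0.16, oxidative phosphorylation from 0 to 0.24 (17 of 83 genes higher at the criterion without vehicle 3, beside 3.91% of annotated genes), and bile acid genes from 0.23 to -0.02. The lists of AHR targets, cholesterol synthesis, lipid-associated macrophages, monocytes and neutrophils, B cells, stellate cells, cholangiocytes, adipocytes and pancreas had no gene at the criterion with all arrays. Of the 47 lists, 14 kept the sign of their median in every alternative for which list medians were taken. De novo lipogenesis, Kupffer cell markers, tubulins, NRF2 targets and acute phase genes stayed below 0. So did complement, cholesterol synthesis, chemokines, interferon-stimulated genes, sinusoidal endothelium, stellate cells and cell cycle. Some of these came close to 0, with highest medians of -0.01 for cell cycle, -0.02 for stellate cells and -0.04 for chemokines. The remaining 2 of the 14 stayed above 0: ATF4 and integrated stress response genes (0.11 to 0.26) and the 6 erythroid markers (0.05 to 0.42). List medians were not taken with array weights, the replicate number as a block or each array's interquartile range in the model.

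**Figure D5:**
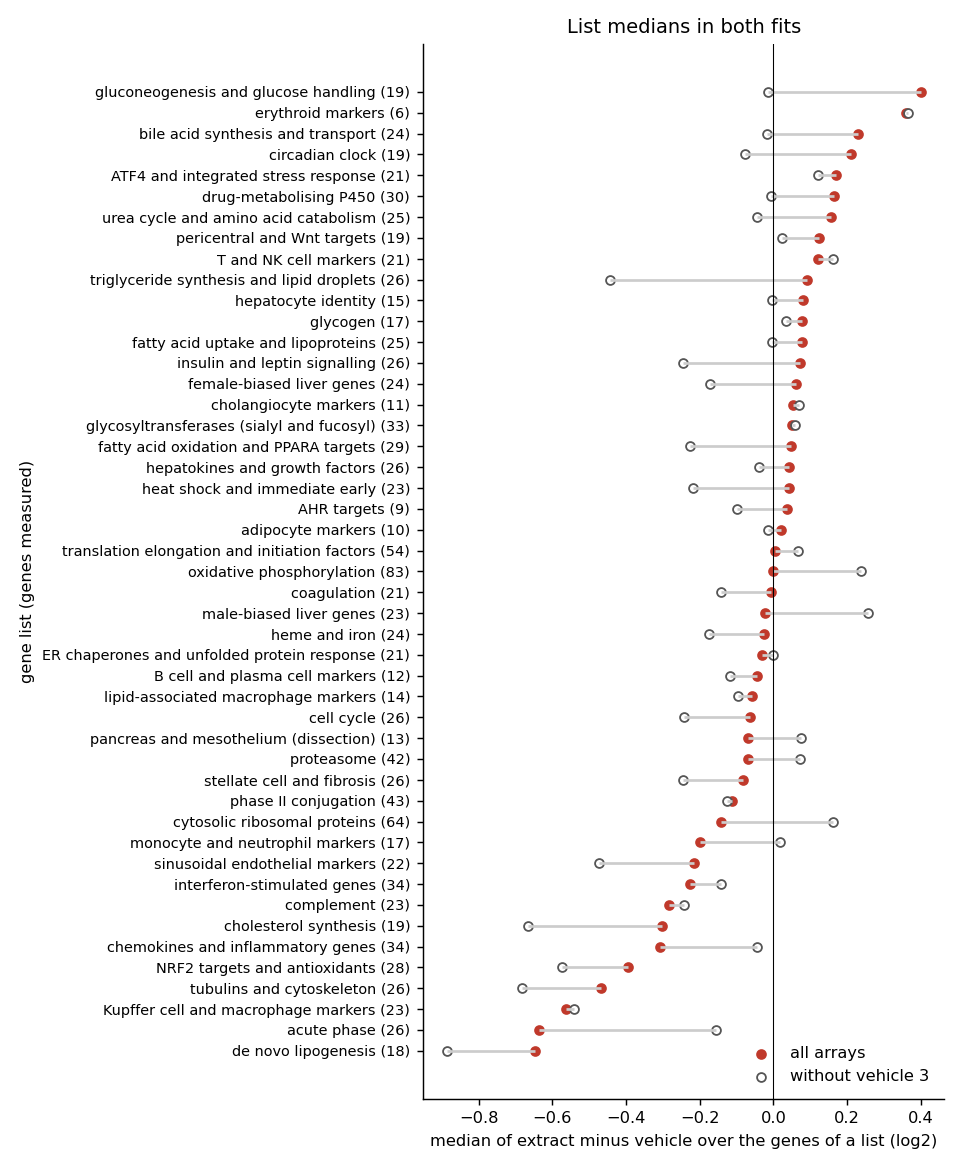
Median of extract minus vehicle (log2) over the measured genes of each of 47 lists, with all arrays (red) and without vehicle replicate 3 (open); the number of genes measured is in brackets. De novo lipogenesis is lowest at -0.65 and -0.89, and the acute phase list moves from -0.64 to -0.16.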

How the data were processed

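Liver RNA was labelled and hybridised to 9 Clariom S arrays. The deposited values are log2 signals of transcript clusters on each array, made by the authors with Transcriptome Analysis Console version 4 and RMA per the submitters' processing notes. The design text names signal space transformation RMA, which widens fold changes and so bears on every difference here. A detection filter that it also names was not applied. Of 22206 clusters, 19572 had 1 symbol in the platform annotation, covering 19505 genes; the array's genome build is not given in the sources used here. The number of arrays limits the precision.

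A mean per group was fitted with limma 3.58.1 in R 4.3.3 over all 9 arrays, or over 8 without ob/ob vehicle 3, with eBayes and Benjamini-Hochberg adjustment over all clusters at 0.05. All differences are extract minus vehicle in log2 units with the fit's standard error (SE), n = 3 per group or 2 vehicle arrays without vehicle 3. The fit was tested on simulated data. For each listed gene the cluster with the highest mean was used. The members, the lists and their genes were chosen with earlier results of these data known.

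Genes were named by a rule: up to 12 per direction with the largest difference among those with p under 0.05 in both fits, no overlap, and a mean above the level that 2.5% of 1091 olfactory receptors exceed; up to 8 per direction by p among calls without vehicle 3; up to 5 per list by p, or all of lists of up to 16; and up to 6 per direction that vehicle 3 moved most. Exceptions are marked as chosen after their values were seen. Alternatives covered other arrays left out, normalizations, array weights, filters on low signals and the replicate number as a block. Same-numbered vehicle and extract arrays deviated from their group means with correlations of -0.13, 0.02 and -0.11, so the numbers were not taken as pairs. Promoters were read with Python 3.11.15.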

Additional observations from a re-analysis of the deposited data

How the results depend on the processing

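With all arrays the count of calls stayed at 0 except with 1 array left out (0 to 51, the 51 without ob/ob vehicle 3), without vehicle 3 in a fit of the ob/ob groups alone (308), without vehicle 3 and wild-type 3 (360), with array weights (106, of them 27 higher) and with each array's interquartile range in the model (1; chosen after seeing the data). The criterion's 1433 became 1025 to 2452 with 1 array left out, 3643 and 3380 in those fits without vehicle 3, 3741 with weights, 2928 with that range and 817 without the lowest 50% of clusters; the share higher ran from 37.2% to 60.8%, the latter after quantile normalization. The 51 calls became 0 to 360 when a further array was left out, where a lone vehicle array is assumed to vary like the other groups, 308 in the ob/ob groups alone, 0 after quantile normalization, 715 with weights, 77 and 99 without the lowest 30% and 50% of clusters, and 24 with that range. Of the 24 calls with that range, 13 were among the 51 and 5 were higher. With the replicate block the counts were 0 with all arrays (criterion 1444) and 0 without vehicle 3. The replicate numbers were not taken to pair the arrays. The cause of these shifts was not tested. All 94 genes checked by name kept their direction in every alternative to the fit of all arrays. Many of them were picked for groups that did not overlap, where leaving out an array cannot reverse the direction. The count is therefore a description and no support. Klf9, Sgk1 and Mt2, named below, were not among the 94. With 3 arrays a group, differences near the median standard error of 0.32 could not be read.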

Other observations

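A set of 16 genes known as targets of the glucocorticoid receptor was drawn up after the values of Fkbp5, Tsc22d3 and Zbtb16 were seen. It gave 6 higher and 0 lower at the design text's criterion with all arrays, beside 3.54% and 2.95% of annotated genes. Without vehicle 3 it gave 3 higher and 1 lower, beside 3.91% and 7.24%. Those 3 were Fkbp5, Tsc22d3 and Zbtb16 themselves, the genes that prompted the set. The 6 with all arrays were those 3 genes, Pck1, Igfbp1 and Angptl4, an inhibitor of lipoprotein lipase (difference 1.14, SE 0.44). The median was 0.81 with all arrays and 0.15 without vehicle 3. Klf9 and Sgk1, both in the set, differed by -0.14 (SE 0.54) and -0.26 (SE 0.34) with overlapping groups, and the metallothionein gene Mt2 pointed down by far with wide spread (-2.48, SE 1.15), extract 2 lying among the vehicle arrays. As these genes were picked with values known, the counts are a description.

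Some subunits of the respiratory chain were higher. Of 83 oxidative phosphorylation genes, 5 met the criterion higher and 1 lower with all arrays, beside 3.54% and 2.95% of annotated genes. The list as a whole had no direction there, with 41 differences above 0, 41 below 0 and a median of 0. Without vehicle 3 the counts were 17 and 4, beside 3.91% and 7.24%. Cox7b, a subunit of cytochrome oxidase, read 14.87, 15.36 and 15.84 with vehicle and 16.37, 16.21 and 15.92 with extract, and the groups did not overlap. Ndufs5, of complex I, read 11.25, 11.97 and 13.69 against 14.33, 13.28 and 13.64, and vehicle 3 was inside the extract range. Slc4a1, the anion exchanger of red cells, was at 6.36, 5.97 and 6.64 against 7.19, 6.93 and 7.11, a difference of 0.75 (SE 0.24); of the 6 erythroid markers measured it was the 1 at the criterion.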
